A study of Mus musculus with 33 samples.

Results

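Macrophages without p50 were set against wild-type macrophages, both given interferon beta (IFNb). The comparison rested on 6 of the study's 33 arrays: bone marrow-derived macrophages (BMDM) labelled p50KO and IFNb at 1, 3 and 8 h, and the 3 arrays labelled WT with the same agent and times. Each genotype had 1 array at each time, so the arrays formed 3 pairs matched on time. All 6 were labelled C57BL/6, and the cells had been grown for 5 to 8 days in medium conditioned by L929 cells. The labels used here name no allele, animal, age or dose and do not say whether arrays came from separate cultures, so a p-value measures the spread between these arrays, which may be technical. No unstimulated array carries an IFNb title in either genotype. The other arrays used were p50KO and WT macrophages of the CpG series (unstimulated and CpG at 1, 3 and 8 h, 8 arrays), p50KO and WT macrophages given lipopolysaccharide (LPS at 1, 3 and 8 h, 6 arrays), an unstimulated WT array with an LPS title, and macrophages labelled IFNARKO, unstimulated and at 3 h of LPS. CpG DNA is a ligand of the receptor TLR9, and LPS of TLR4. Levels below are normalized log2 intensities, and a difference is p50KO minus WT in log2 units.

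Interferon beta binds the receptor IFNAR, and its signal acts on genes through interferon-stimulated response elements in their promoters. The genes it turns on include antiviral effectors, guanylate-binding proteins and antigen presentation genes. The p50 protein is an NF-kB subunit without a transactivation domain of its own. It forms activating dimers with other subunits, while p50 homodimers can occupy a site without activating it. The title of the series concerns repression of interferon-response elements by p50, and cells given IFNb itself show which genes differ without p50 when the receptor is engaged directly.

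Of 9161 genes tested, 15 (0.164%) were at least 2-fold apart in the same direction at 1, 3 and 8 h. The 7 higher in p50KO (0.0764%) were Gbp2b, Gdf3, Oasl1, Csprs, Rab4a, Cap1 and Them6. The 8 lower in p50KO (0.0873%) were Ebi3, Mcoln3, Igfbp7, Eif4e, Bgn, Hscb, Ccn2 and Abcd3. Without background correction 8 of these genes met the rule, and with the authors' normalized values 6. Oasl1 is an antiviral effector gene and Gbp2b a guanylate-binding protein gene. The interferon program was read from a list that holds Oasl1 and Csprs. Over its 174 genes, whose induction by LPS was lower in IFNARKO macrophages, the median level above an unstimulated WT array was 1.56 log2 units in p50KO and 1.5 in WT at 3 h. In whole cultures, fewer cells of a type and less RNA per cell cannot be told apart.

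**Figure D1:**
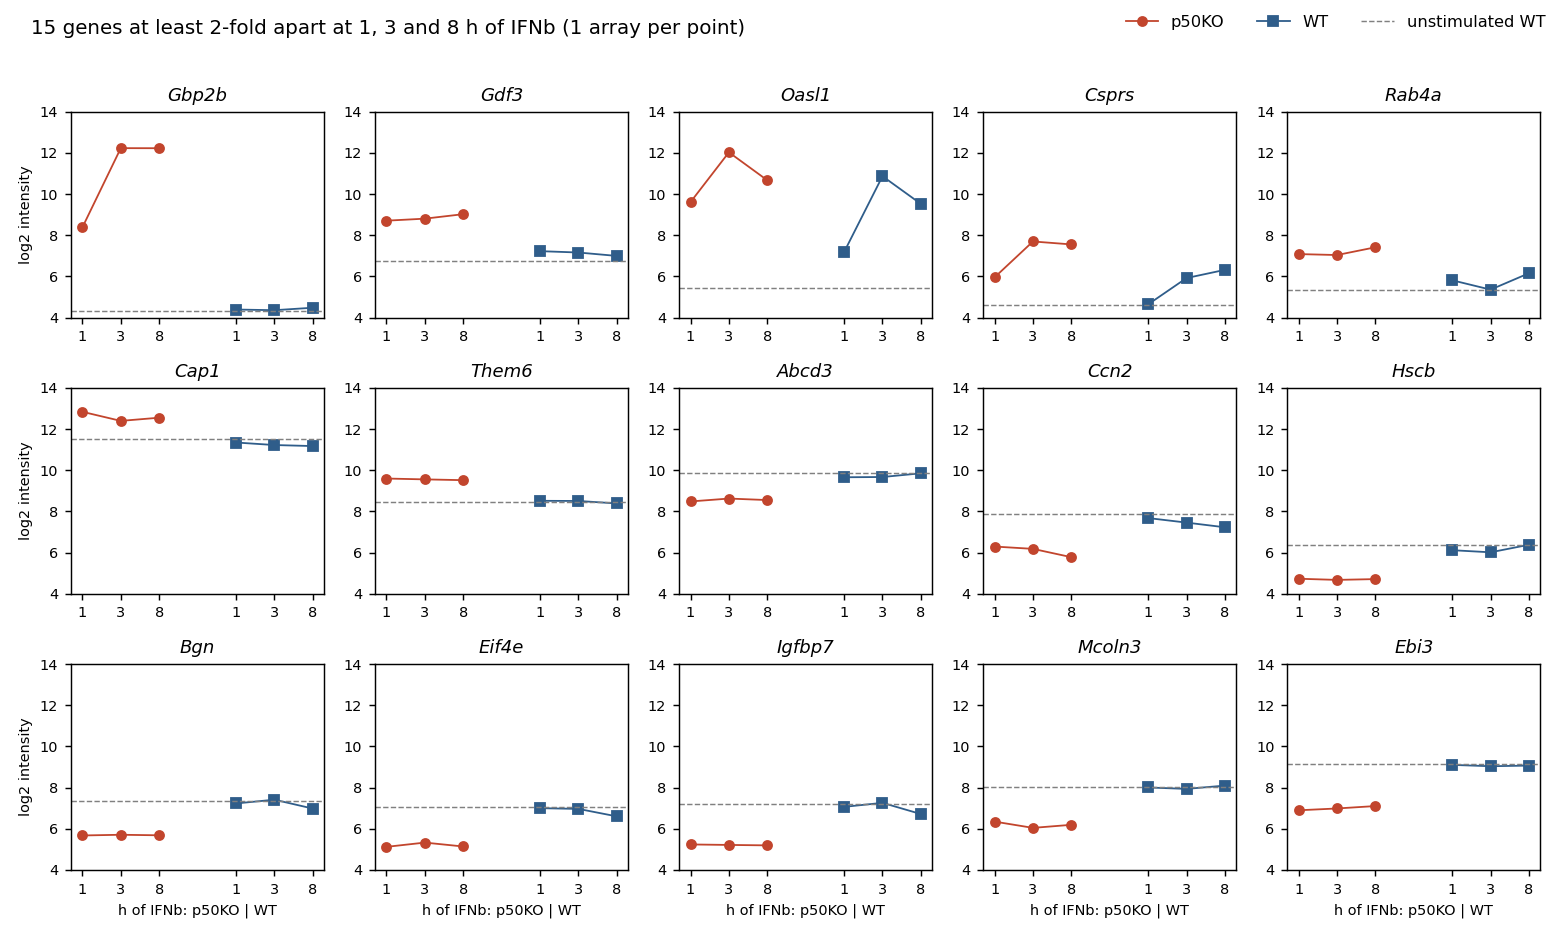
Normalized log2 intensity of the 15 genes (1 panel each) at 1, 3 and 8 h of IFNb, p50KO (circles) left and WT (squares) right, 1 array per point; the dashed line is the unstimulated WT array with an LPS title. Gbp2b read 8.38, 12.23 and 12.23 in p50KO against 4.39, 4.36 and 4.48 in WT.

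The promoters of 4 genes are shown: Gbp2b and Oasl1 as the interferon effectors among the 15, Ebi3 as the gene lowest in p50KO relative to WT, and Gbp2 as a relative of Gbp2b that was not called. The windows run from 250 bases before to 50 bases after the annotated start, 5′ to 3′, and come from RefSeq (build GRCm38.p6). All 4 lie on the plus strand: Gbp2b at chr3:142594597-142594896, Gbp2 at chr3:142620413-142620712, Oasl1 at chr5:114922990-114923289 and Ebi3 at chr17:55952373-55952672. Capitals mark matches on either strand to GAAANNGAAA (the core of an interferon-stimulated response element), GGGNNTTTCC (an NF-kB type site) or GGGGAAA, which can overlap either of the other two.
Gbp2b: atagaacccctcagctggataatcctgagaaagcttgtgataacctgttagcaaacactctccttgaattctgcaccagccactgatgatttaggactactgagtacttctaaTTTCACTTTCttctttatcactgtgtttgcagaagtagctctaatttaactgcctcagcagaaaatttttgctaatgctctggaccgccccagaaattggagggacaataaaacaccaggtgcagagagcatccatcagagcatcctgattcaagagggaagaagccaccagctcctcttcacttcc
Gbp2: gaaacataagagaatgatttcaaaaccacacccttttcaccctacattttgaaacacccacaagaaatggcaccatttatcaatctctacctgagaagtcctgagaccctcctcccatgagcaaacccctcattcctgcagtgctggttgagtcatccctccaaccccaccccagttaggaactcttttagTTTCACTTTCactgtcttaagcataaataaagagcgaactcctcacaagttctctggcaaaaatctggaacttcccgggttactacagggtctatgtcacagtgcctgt
Oasl1: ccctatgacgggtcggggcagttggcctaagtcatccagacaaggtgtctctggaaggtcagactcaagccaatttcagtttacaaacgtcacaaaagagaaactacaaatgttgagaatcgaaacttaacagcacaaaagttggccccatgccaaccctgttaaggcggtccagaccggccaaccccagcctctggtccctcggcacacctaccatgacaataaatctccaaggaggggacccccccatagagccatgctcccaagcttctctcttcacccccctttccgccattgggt
Ebi3: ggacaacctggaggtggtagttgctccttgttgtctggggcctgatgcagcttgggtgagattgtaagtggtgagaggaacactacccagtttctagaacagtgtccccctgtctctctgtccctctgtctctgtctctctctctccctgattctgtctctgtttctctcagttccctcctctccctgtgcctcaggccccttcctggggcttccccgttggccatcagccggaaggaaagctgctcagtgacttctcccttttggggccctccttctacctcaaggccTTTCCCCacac

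Gbp2b and Gbp2 each held a GAAANNGAAA match, 137 bases before the start in Gbp2b and 59 bases before it in Gbp2. Oasl1 had no match to the 3 motifs in this window, and Ebi3 had a GGGGAAA match 39 bases after the start. A window was available for 9 of the 15 genes, of which Gbp2b held GAAANNGAAA, Ebi3 held GGGGAAA and none held GGGNNTTTCC. Over all 32851 windows the shares were 3.44% for GAAANNGAAA, 1.63% for GGGNNTTTCC and 8.12% for GGGGAAA, and in the 177 windows of the IFNAR-dependent genes 15.8%, 3.95% and 11.9%. A match describes letters and is no evidence of a bound factor.

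One array stood apart. At 1 h 211 (2.3%) genes were at least 2-fold lower and 15 (0.164%) higher in p50KO, against 12 (0.131%) lower and 11 (0.12%) higher at 3 h and 16 (0.175%) lower and 12 (0.131%) higher at 8 h. Each p50KO array was most like the WT array of its own time over all genes (r = 0.988, 0.995 and 0.995 at 1, 3 and 8 h). From 11818 to 12123 probes were above background on the p50KO arrays and 11462 to 11934 on the WT arrays. Of 7 macrophage markers with a probe, 6 were above background on all 6 arrays, and their summed linear intensity was 50076 to 55141 in p50KO and 49711 to 54860 in WT. The p50 gene was not analysed here, and the p50KO label therefore had no check from its own target.

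A limma fit over the 6 arrays, with time as a factor and the 3 pairs as replicates, called 26 genes (0.284%) at an adjusted p under 0.05, 10 higher (0.109%) and 16 lower (0.175%) in p50KO. At an unadjusted p under 0.05 there were 832 (9.08%). Of the 15 genes 14 were called, all but Oasl1 (adjusted p = 0.0808). Without the 1, 3 or 8 h pair 20, 15 and 13 genes were called, and 12 of the 26 were called in all 3 of these fits. Testing every gene without the detection filter called 0 genes, and a fit over the 21 WT and p50KO arrays called 3 (Gbp2b, Gdf3 and Eif4e).

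Gbp2b encodes an interferon-inducible GTPase of cell-autonomous defence. Its level was 8.38, 12.23 and 12.23 in p50KO against 4.39, 4.36 and 4.48 in WT at 1, 3 and 8 h, so the groups lay far apart. Its signal exceeded background in 3 of 3 p50KO samples and in 0 of 3 WT samples. On the mean log2 level over the 3 times it was at least 61.6-fold higher in p50KO (adjusted p = 0.0121, limma). This was counted in this normalization against the lowest signal above background on the WT arrays. The log2 difference was 3.99 at 1 h, 7.87 at 3 h and 7.75 at 8 h. With the authors' normalized values the log2 difference was 5.02 and missed the threshold (adjusted p = 0.0588, limma). Over 13 alternatives it ran from 5.02 to 7.81, with adjusted p up to 0.305 (no detection filter). Over all 10 p50KO macrophage arrays it ranged from 8.38 to 14.47 with a median of 12.23, and it was above background on 0 of 11 WT arrays. The unstimulated pair of the CpG series read 9.03 in p50KO and 4.30 in WT, so the gap was present on arrays without any agent.

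Other genes of its family were not called. Of 12 interferon-inducible GTPase genes tested 1 was called, Gbp2b, against 0.284% of all genes. Gbp2 read 8.53, 11.89 and 11.86 in p50KO against 8.28, 12.46 and 12.63 in WT, a difference of -0.36 ± 0.19 (SE; adjusted p = 0.607, limma). Gbp3 read 7.57, 10.87 and 10.59 in p50KO against 7.43, 10.91 and 10.76 in WT, and Gbp7 5.35, 8.97 and 7.02 in p50KO against 5.43, 8.63 and 6.96 in WT. All 3 relatives were higher at 3 h than at 1 h in both genotypes, Gbp2 by 3.77 ± 0.23 over both (adjusted p = 0.00013).

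Oasl1 is an oligoadenylate synthetase-like gene whose product limits translation of Irf7 mRNA in mice. It is in the IFNAR-dependent list, and its level was 9.61, 12.03 and 10.67 in p50KO against 7.18, 10.87 and 9.52 in WT at 1, 3 and 8 h. The genotypes overlapped across times but not within a pair, and the difference was 2.43 at 1 h, 1.16 at 3 h and 1.15 at 8 h. Averaged over the pairs it was 1.58 ± 0.24 (SE), 2.99-fold higher in p50KO without passing the test. Its 2 other probes gave 1.53 and 1.39. The unstimulated pair of the CpG series read 9.71 in p50KO and 8.37 in WT, so Oasl1 was higher in p50KO there without any agent. The unstimulated WT arrays lay further apart from each other, with 8.37 with the CpG title and 5.46 with the LPS title.

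Csprs, also an IFNAR-dependent gene, read 5.96, 7.70 and 7.56 in p50KO against 4.64, 5.92 and 6.32 in WT, and was above background on 2 of 3 WT arrays, the 1 h array being the exception. The fitted difference was 1.44 ± 0.13 (SE; adjusted p = 0.00615, limma), and its 1 h part rests on a WT signal not well above background. Both genotypes had more at 3 h than at 1 h, with a rise of 1.51 ± 0.16 over both (adjusted p = 0.00155).

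The other higher genes kept an even distance from WT with no overlap. Gdf3, a ligand of the TGF-beta family, read 8.71, 8.81 and 9.02 in p50KO against 7.23, 7.16 and 7.0 in WT (3.29-fold higher, adjusted p = 0.00264). Rab4a, a small GTPase of endosome recycling, read 7.09, 7.04 and 7.42 in p50KO against 5.81, 5.36 and 6.16 in WT (2.65-fold higher, adjusted p = 0.00514). Cap1, which binds actin monomers, read 12.84, 12.40 and 12.55 in p50KO against 11.35, 11.23 and 11.18 in WT (2.54-fold higher, adjusted p = 0.00348).

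Them6, of the thioesterase superfamily, also lay apart. It read 9.60, 9.56 and 9.52 in p50KO against 8.52, 8.51 and 8.39 in WT (2.12-fold higher, adjusted p = 0.00514), and its 2 other probes gave 0.84 and 0.54.

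Ebi3, a subunit of the cytokines IL-27 and IL-35, was the gene lowest in p50KO relative to WT. Its level was 6.90, 6.99 and 7.11 in p50KO against 9.11, 9.04 and 9.07 in WT at 1, 3 and 8 h, which made it 4.21-fold lower (-2.07 ± 0.10, SE; adjusted p = 0.00109, limma). Over both genotypes its change from 1 to 3 h was 0.011 ± 0.12 (adjusted p = 0.966), and the unstimulated pair of the CpG series read 7.76 in p50KO and 9.29 in WT. Il27, which encodes the partner subunit in IL-27, read 4.47, 5.88 and 4.55 in p50KO against 4.54, 5.82 and 4.38 in WT, a difference of 0.055 ± 0.10 (adjusted p = 0.879), and was above background on 1 array of each genotype. Ebi3 was 1 of 20 inflammatory cytokine and enzyme genes tested and the 1 called, against 0.284% of all genes called.

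A group of lower genes lies on chromosome 3. Mcoln3, an endolysosomal cation channel, read 6.35, 6.05 and 6.19 in p50KO against 8.01, 7.94 and 8.10 in WT (3.53-fold lower, adjusted p = 0.00159). Eif4e, the cap-binding factor of translation initiation, read 5.12, 5.33 and 5.14 in p50KO against 7.0, 6.97 and 6.60 in WT (3.16-fold lower, adjusted p = 0.00264). Its p50KO values lay near the lowest signal above background on those arrays, 4.91 to 4.98. Abcd3, a peroxisomal transporter, read 8.48, 8.63 and 8.55 in p50KO against 9.66, 9.67 and 9.85 in WT (2.26-fold lower, adjusted p = 0.00514). None of them overlapped between genotypes. With Gbp2b they make 4 of the 15 genes on chromosome 3, and Pla2g12a, a secreted phospholipase A2 gene, makes 5 of the 26 called, against 4.99% of the genes tested. The gene for p50 is on the same chromosome, and loss of p50 and chromosome segments linked to the disrupted gene cannot be told apart.

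Hscb, a co-chaperone of mitochondrial iron-sulfur cluster assembly, read 4.73, 4.68 and 4.71 in p50KO against 6.12, 6.02 and 6.38 in WT. Its signal exceeded background in 0 of 3 p50KO samples and in 3 of 3 WT samples. On the mean log2 level over the 3 times it was at least 2.33-fold lower in p50KO (adjusted p = 0.00264, limma). A second Hscb probe was not above background on any of the 6 arrays.

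The remaining lower genes encode secreted proteins of the matrix and growth factor binding. Igfbp7, which binds insulin-like growth factors, read 5.24, 5.22 and 5.20 in p50KO against 7.07, 7.26 and 6.72 in WT (3.47-fold lower, adjusted p = 0.00264). Its p50KO values lay near the lowest signal above background on those arrays (4.91 to 4.98), and a second Igfbp7 probe was not above background on any array. Bgn, the proteoglycan biglycan, read 5.68, 5.71 and 5.68 in p50KO against 7.23, 7.41 and 6.98 in WT (2.87-fold lower, adjusted p = 0.00264). Ccn2, a matricellular protein also called connective tissue growth factor, read 6.30, 6.18 and 5.78 in p50KO against 7.68, 7.46 and 7.23 in WT (2.59-fold lower, adjusted p = 0.00264). The groups did not overlap. The unstimulated WT arrays also lay apart from each other, with 7.18 with the LPS title and 4.85 with the CpG title for Igfbp7. Among 8 fibroblast markers Col1a2 was above background on some of the 6 arrays and Col1a1, Col3a1, Pdgfra, Pdgfrb, Thy1, Dcn and Lum on none, with summed intensities of 168 to 170 in p50KO and 174 to 177 in WT. Of the 15 genes 5 were at least 2-fold apart between the unstimulated WT arrays, against 6.01% of all genes.

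A further 12 genes were called without being 2-fold apart at all times. None of the 12 was called in all 3 fits that left out a pair, and Acta2, Cd59a, Cybc1, Gpr84 and Pla2g12a were called in 0 of 3. Gpr84 and Slc6a13 also lost the call with the authors' normalized values. Higher in p50KO were Apoe, the apolipoprotein E gene (1.06 ± 0.11, SE), Marcksl1, an actin regulator (0.95 ± 0.11), Gpr84, a receptor for medium-chain fatty acids (0.87 ± 0.10), and Cybc1, a chaperone of the phagocyte NADPH oxidase (0.74 ± 0.10). Apoe read 11.42, 11.22 and 11.04 in p50KO against 10.18, 10.12 and 10.20 in WT, with no overlap. Lower in p50KO were Slc6a13 (-1.28 ± 0.12), a GABA transporter gene, Xlr4a (-1.08 ± 0.10), Ppic (-1.0 ± 0.10), which encodes cyclophilin C, and Acta2 (-1.0 ± 0.12), which encodes smooth muscle actin. Epb41l3 (-0.98 ± 0.12), Idua (-0.91 ± 0.093), a lysosomal hydrolase gene, Pla2g12a (-0.84 ± 0.10) and Cd59a (-0.78 ± 0.10), a complement inhibitor gene, completed the lower genes. Acta2 read 8.05, 8.47 and 8.07 in p50KO against 9.33, 9.28 and 8.96 in WT, and its 3 other probes gave differences of -0.48, -0.96 and -0.64. By the smallest of the 3 differences, Abcd3, Them6 and Oasl1 lay just inside the 2-fold rule and Slc6a13, Xlr4a and Idua just outside it.

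The CpG series and the LPS pairs share no array with the IFNb pairs. With CpG limma called 614 genes (6.7%; 3.59% higher and 3.11% lower in p50KO). Of the 15 genes 11 were called in the same direction there, 4 higher and 7 lower, and 12 had the same sign in 4 of 4 pairs. The share of all genes with the same sign in every pair was not counted. Eif4e differed by -1.66 ± 0.11 with IFNb and -1.66 ± 0.083 with CpG (adjusted p = 3.63e-05), and Mcoln3 by -1.82 ± 0.10 with IFNb and -1.59 ± 0.081 with CpG (adjusted p = 3.66e-05).

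Over all 10 p50KO and 11 WT macrophage arrays, stimulated or not, the ranges of 5 of the 15 genes did not overlap: Abcd3, Eif4e, Gbp2b, Gdf3 and Hscb. These arrays include the 6 that chose the genes, so the ranges are a description. The share of all genes with separate ranges was not counted. Eif4e spanned 5.01 to 5.59 (median 5.16) in p50KO and 6.60 to 7.14 (median 6.84) in WT, and was above background on 5 of 10 p50KO arrays. Gdf3 spanned 7.87 to 9.02 (median 8.42) in p50KO and 6.77 to 7.29 (median 7.10) in WT, and Abcd3 7.84 to 8.63 (median 8.23) in p50KO and 8.90 to 9.87 (median 9.50) in WT. The IFNARKO arrays read 7.69 to 7.89 for Gdf3, above the WT range and partly within that of p50KO. For Abcd3 they read 9.41 to 9.46, within the WT range, and for Eif4e 7.68 to 7.80, above it. The other 10 genes overlapped across agents and times. Ebi3, for example, spanned 6.90 to 10.77 (median 7.95) in p50KO and 9.04 to 12.40 (median 9.38) in WT, and Oasl1 9.49 to 13.51 (median 10.73) in p50KO and 5.46 to 13.41 (median 8.23) in WT.

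Cap1 went the other way with CpG (-0.54 ± 0.085, adjusted p = 0.00865), and so did Apoe (-1.0 ± 0.10, adjusted p = 0.00107). The limma test of the difference between the agents, over the times both have, called 113 genes (1.23%; 0.48% higher and 0.753% lower with IFNb), among them Bgn, Cap1, Ccn2, Gdf3, Igfbp7, Rab4a and Them6 of the 15. For Cap1 the p50 difference with IFNb minus that with CpG was 1.86 ± 0.15 (SE; adjusted p = 0.00036).

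With LPS all 15 genes had the sign they had with IFNb, 13 of them in 3 of 3 pairs. The share of all genes that kept their sign was not counted, and the labels do not say whether the LPS and IFNb arrays share cultures. Limma called 1 gene there (0.0109%), Gbp2b (9.70 ± 0.25, adjusted p = 0.000635), with 790 genes (8.62%) at an unadjusted p under 0.05. The median SE over genes was 0.244 with LPS, against 0.106 with IFNb and 0.0908 with CpG. The p50KO arrays labelled LPS 1 h and 3 h were most like the WT arrays of 3 h (r = 0.989) and 8 h (r = 0.984), so the LPS pairs may not be matched in time. In the CpG series the p50KO 3 h array was slightly more like the WT 8 h array (r = 0.9907) than the WT 3 h array (r = 0.9901). The test of IFNb minus LPS called 0 genes in limma (0%), with 714 (7.79%) at an unadjusted p under 0.05.

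**Figure D2:**
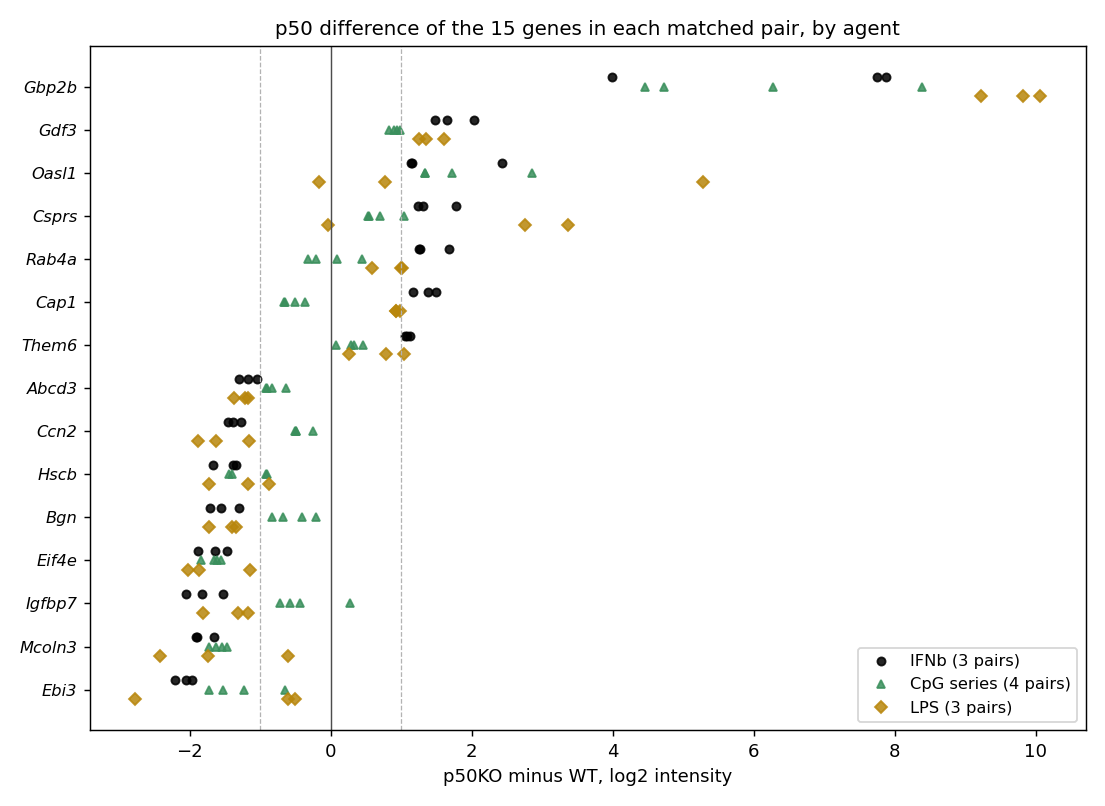
p50KO minus WT in log2 intensity for the 15 genes (rows) in each matched pair with IFNb (circles, 3 pairs), in the CpG series (triangles, 4 pairs) and with LPS (3 pairs); dashed lines mark 2-fold. Cap1 averaged 1.35 with IFNb and -0.54 in the CpG series, while Eif4e averaged -1.66 and -1.66.

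The size of the interferon program was read from 174 genes that LPS raised at least 2-fold at 3 h in WT and at least 2-fold less in IFNARKO. The choice used no IFNb array, but it did use the unstimulated WT array with the LPS title. A gene reading low on that array was favoured, which can raise levels above it. Against that array the median of the 174 genes was 0.33 log2 units in p50KO and 0.22 in WT at 1 h. It was 1.56 log2 units in p50KO and 1.5 in WT at 3 h, and 0.56 log2 units in p50KO and 0.51 in WT at 8 h. At least 2-fold above that array were 32 genes in p50KO and 18 in WT at 1 h, 124 and 126 at 3 h, and 64 and 62 at 8 h. Over all genes these shares were 0.655% in p50KO and 0.306% in WT at 1 h, 2.65% and 2.51% at 3 h, and 1.52% and 1.32% at 8 h. Against the unstimulated WT array with the CpG title the list's medians were 0.0099 in p50KO and -0.18 in WT at 1 h. They were 1.18 and 1.14 at 3 h, and 0.26 and 0.27 at 8 h. The baseline cancels in the difference between genotypes, whose median over the list was 0.13 at 1 h, 0.035 at 3 h and 0.011 at 8 h, against 0.035, -0.012 and -0.0020 over all genes. With arrays scaled to their medians instead, the list's values were 0.24, -0.13 and 0.070, so the sign at 3 h turned. The part of the p50KO 1 h array that stood apart in the 1 h value was not tested.

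**Figure D3:**
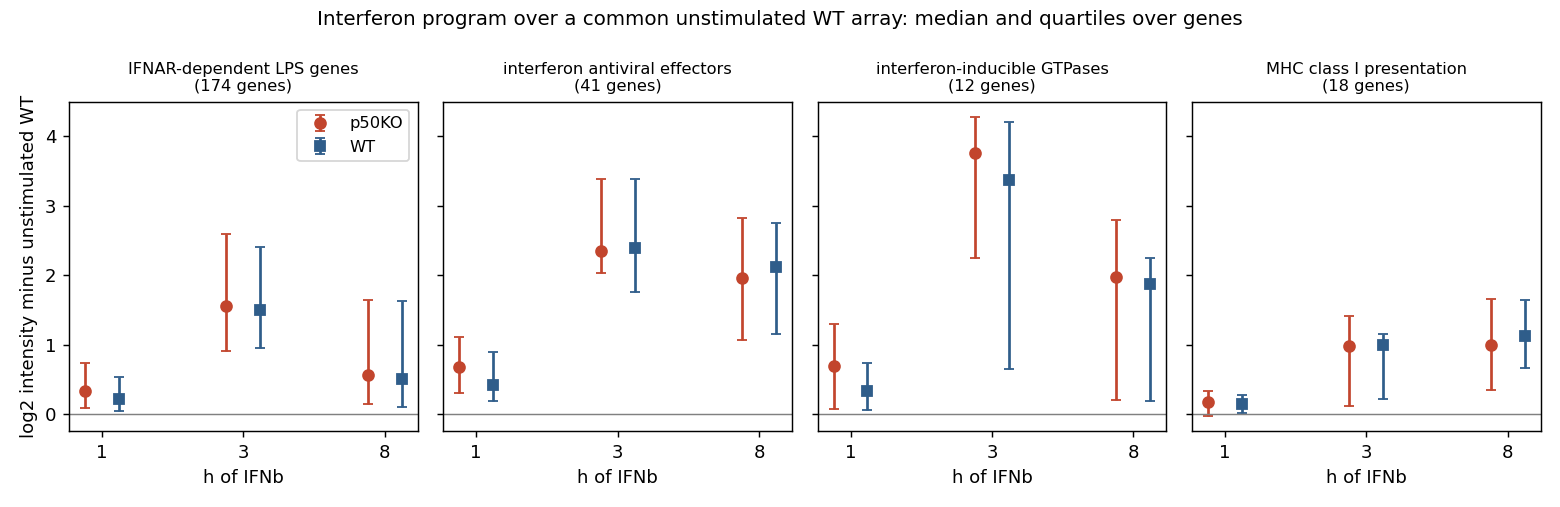
Median (points) and quartiles (bars) over genes of log2 intensity minus the unstimulated WT array with an LPS title, at 1, 3 and 8 h of IFNb, p50KO (circles) left of WT (squares), for 4 gene lists. The IFNAR-dependent genes were highest at 3 h in both genotypes, with medians of 1.56 in p50KO and 1.5 in WT.

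Of the 174 genes 1 was called between genotypes, Csprs, against 0.284% of all genes, and 29 had an unadjusted p under 0.05, against 9.08% of all genes. For 171 the 95% confidence interval of the difference lay within 2-fold either way, against 98.3% of all genes. For 147 of the 174 it lay within 1.5-fold, against 8326 of all 9161 genes, a smaller share in the list than over all genes. The exceptions at 2-fold were Csprs, Oasl1 and Clec2d (-0.44, interval -1.07 to 0.20).

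Set against the unstimulated CpG-series array of its own genotype, the list had medians of -0.13 in p50KO and -0.18 in WT at 1 h, 1.12 and 1.14 at 3 h, and 0.18 and 0.27 at 8 h. The median differences were then 0.034, -0.10 and -0.15, so the direction depends on the baseline at 3 and 8 h. Within the IFNb arrays alone the median change from 1 to 3 h was 1.24 in p50KO and 1.32 in WT, and from 1 to 8 h 0.25 and 0.37.

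Antiviral effectors were highest at 3 h in both genotypes, with medians above the unstimulated WT array (LPS title) of 0.68 log2 units in p50KO and 0.42 in WT at 1 h, 2.34 log2 units in p50KO and 2.40 in WT at 3 h and 1.96 log2 units in p50KO and 2.11 in WT at 8 h. Of 41 tested 0 were called by limma (0.284% of all genes) and 8 had an unadjusted p under 0.05 (9.08% of all genes). The difference was positive for 29 of them (4683 of all 9161 genes), with a median of 0.077 (0.0040 over all genes). By time the median was 0.21 at 1 h, where the p50KO array stood apart, 0.093 at 3 h and -0.0012 at 8 h. Over all genes it was 0.035, -0.012 and -0.0020. Ifit3, of a family that binds viral RNA, read 11.34, 14.44 and 12.56 in p50KO against 10.78, 14.35 and 12.72 in WT (0.16 ± 0.14, SE). Mx1, a dynamin-like GTPase that acts against influenza virus, read 7.61, 10.75 and 8.36 in p50KO against 6.85, 10.56 and 8.23 in WT (0.36 ± 0.14). Isg15, a ubiquitin-like modifier, read 8.01, 12.10 and 11.94 in p50KO against 8.54, 11.99 and 11.78 in WT (-0.087 ± 0.15). None of these 3 passed the test (adjusted p = 0.725, 0.537 and 0.87, limma). Rsad2, which encodes viperin, read 12.34, 14.85 and 11.53 in p50KO against 12.07, 14.85 and 11.57 in WT, with its highest level at 3 h in both.

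Over both genotypes together, time moved many genes. From 1 to 3 h 429 genes (4.68%) rose and 329 (3.59%) fell in the limma fit, and from 3 to 8 h 247 (2.7%) rose and 325 (3.55%) fell. Of the 174 genes 138 rose from 1 to 3 h. The fit did not test each genotype alone. By size alone, 396 of all 9161 genes rose at least 2-fold from 1 to 3 h in p50KO and 200 in WT. The p50KO 1 h array, which stood apart, enters these values, and its part was not tested. Cxcl10, a chemokine for activated T cells, read 6.65, 12.21 and 5.63 in p50KO against 6.94, 12.46 and 6.33 in WT. It changed by 5.55 ± 0.15 from 1 to 3 h (adjusted p = 1.62e-05) and by -6.36 ± 0.15 from 3 to 8 h (adjusted p = 6.1e-06), while its p50 difference was -0.41 ± 0.12 (adjusted p = 0.429). Irf7, the factor that amplifies interferon production, read 8.03, 10.63 and 10.69 in p50KO against 7.70, 10.46 and 10.17 in WT and was higher at 8 h than at 1 h (2.57 ± 0.13 from 1 to 8 h, adjusted p = 0.000263). Egr1, an immediate-early transcription factor gene, changed by -1.93 ± 0.23 from 1 to 3 h (adjusted p = 0.00272).

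**Figure D4:**
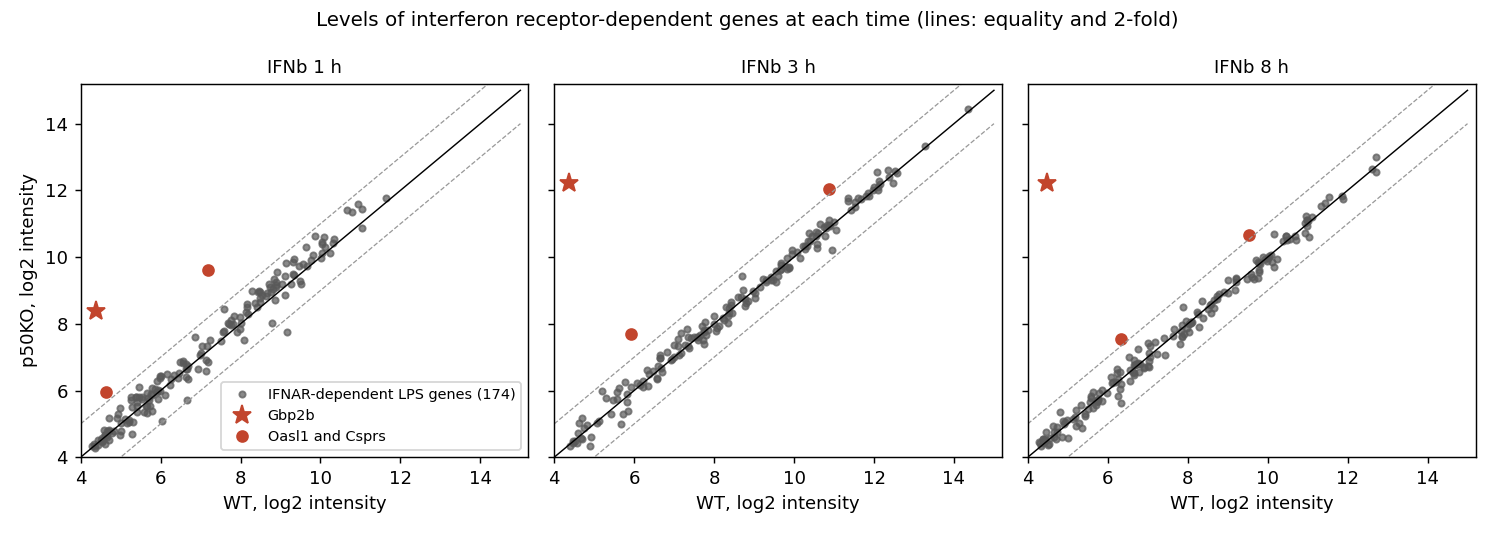
Normalized log2 intensity of the 174 IFNAR-dependent genes in p50KO (vertical axis) against WT (horizontal axis) at 1, 3 and 8 h of IFNb, 1 array each, with lines at equality and 2-fold; Gbp2b, not in the list, is a star. Oasl1 lay above the 2-fold line at all 3 times, with differences of 2.43 at 1 h, 1.16 at 3 h and 1.15 at 8 h.

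In the other lists with 0 genes called by limma, 2 of 18 MHC class I presentation genes, 1 of 13 chemokines, 6 of 16 NF-kB subunits and inhibitors, 2 of 17 interferon signalling factors and 1 of 5 p200 family genes had an unadjusted p under 0.05, against 9.08% of all genes. Their median differences ran from -0.047 (chemokines) to 0.12 (p200 family). Toll-like receptor components (19 tested), immediate-early genes (13) and cell cycle genes (12) had 0 called and 0, 0 and 1 at an unadjusted p under 0.05. Tnip1, an inhibitor of NF-kB signalling, had -0.43 ± 0.10 (adjusted p = 0.293), and Birc3, which restrains cell death, 0.40 ± 0.10 (adjusted p = 0.316). Granulocyte and progenitor markers summed to 4361 to 6592 in p50KO and 5626 to 10133 in WT, with 0 of 10 called and 2 at an unadjusted p under 0.05. Limma also called 0 of 8 dendritic cell and MHC class II markers, 0 of 6 macrophage, 0 of 1 lymphocyte, 0 of 2 erythroid and mast cell and 0 of 1 fibroblast markers and 0 of 2 type I interferon genes, with 1, 0, 0, 0, 1 and 0 at an unadjusted p under 0.05.

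With CpG 36 of the 174 genes were called higher and 4 lower in p50KO, where 3.59% of all genes were higher and 3.11% lower. The list's median difference with CpG was 0.34 (-0.018 over all genes), against a median of 0.061 with IFNb. With LPS it was 0.87 (-0.030 over all genes). The LPS pairs may not be matched in time, and they include the WT 3 h array that helped choose the list. The difference between IFNb and CpG was itself called for 7 of the 174 genes, 5 with a lower value under IFNb, against 1.23% of all genes. Among these were Ifi202b, a p200 family gene (-4.87 ± 0.28, SE; adjusted p = 2.7e-05), and Cxcl10 (-2.55 ± 0.44, adjusted p = 0.0293). With IFNb Ifi202b read 9.19, 10.25 and 9.62 in p50KO against 8.70, 10.28 and 9.80 in WT. The neutrophil chemokine gene Cxcl1 had a difference between IFNb and CpG of -3.65 ± 0.18, and Npy, the neuropeptide Y gene, of 6.92 ± 0.36 (adjusted p = 1.83e-05). With IFNb Npy read 8.88, 10.38 and 10.64 in p50KO against 10.55, 10.41 and 10.75 in WT. Summed over 5 p200 family genes, the p50KO IFNb 1 h array minus the unstimulated CpG-series array was 0.21 with the WT array and -5.04 with the p50KO array. For 13 chemokines these sums were -0.94 and -8.69. As sums, both lists thus read higher in p50KO than in WT there without any agent. The 5 p200 genes did not all go the same way. Over each genotype's own unstimulated array, 2 of the 5 were at least 2-fold lower in p50KO at 1 h and 1 at least 2-fold higher. Over the WT array for both genotypes it was 0 and 0. The parts of agent and array set in these contrasts were not tested.

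The genes lower at 1 h alone included 8 families that were picked out after the values were seen and carry no test. Of 214 genes in them 74 were at least 2-fold lower in p50KO at 1 h, and 0 at 3 h or 8 h. Over all genes these shares were 2.3% at 1 h, 0.131% at 3 h and 0.175% at 8 h. The 74 included 10 of 12 H2A histones, 10 of 13 cytochrome oxidase subunits, 15 of 32 subunits of respiratory complex I and 18 of 54 cytosolic ribosomal proteins. The rest were 6 of 16 ATP synthase subunits, 3 of 7 complex III subunits, 9 of 67 mitochondrial ribosomal proteins and 3 of 13 Sm and Lsm proteins. Ndufa3, a complex I subunit gene, read 9.33, 11.67 and 11.65 in p50KO against 11.91, 11.86 and 11.75 in WT, and Tomm7, of the mitochondrial import pore, 8.78, 11.14 and 11.05 in p50KO against 11.27, 11.23 and 11.25 in WT: the p50KO 1 h value alone was low. Of the 211 genes 198 were within 1.5-fold of WT at both later times, and 191 were at least 2-fold below the unstimulated WT array on the p50KO 1 h array, against 0 on the WT 1 h array (2.37% and 0.0218% of all genes).

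**Figure D5:**
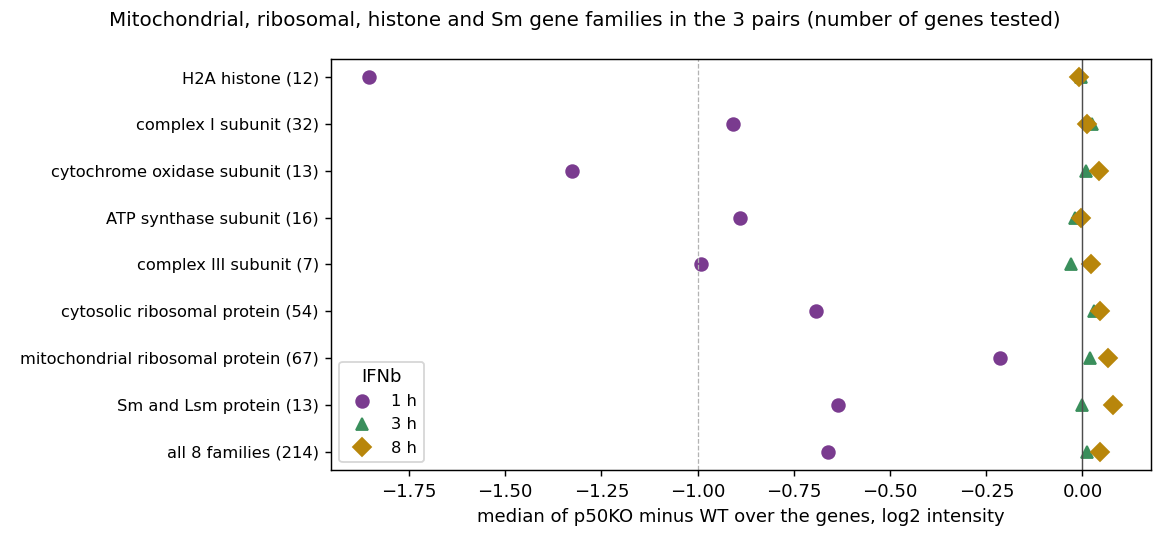
Median of p50KO minus WT in log2 intensity over the genes of each family (numbers tested in brackets) in the 1 h (circles), 3 h (triangles) and 8 h (diamonds) pairs; the dashed line marks 2-fold lower. The H2A histones had a median of -1.86 at 1 h, -0.0038 at 3 h and -0.0085 at 8 h.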

How the data were processed

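The arrays were Illumina MouseRef-8 bead arrays. The authors deposited each probe's intensity on a linear scale without normalization, with a detection p-value beside it, per the file headers. BeadStudio is named in the submitters' processing notes, without a version. The authors also deposited normalized intensities, used as an alternative; how they were made is not stated in any source at hand. In the macrophage file 8 lines held no values.

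Background was corrected by normexp (limma nec, offset 16), and the 23 macrophage arrays were then quantile normalized together on the log2 scale. Of 25697 probes, 23978 carried 1 gene symbol, 0 carried several and 1719 carried none; 23962 were found in the GRCm38.p6 gene table. A gene was tested where 1 of its probes had a detection p below 0.01 in 2 or more samples (9161), each by its brightest probe. Tests were two-sided limma fits (lmFit, eBayes) with Benjamini-Hochberg adjustment, tested on simulated data. The IFNb fit had 2 residual and 5.15 prior degrees of freedom, and the number of arrays limits its precision. Software was R 4.3.3, limma 3.58.1, Python 3.11.15, numpy 2.4.6, pandas 2.3.3 and matplotlib 3.10.9.

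The members and the 18 lists (291 genes) were chosen with earlier results of these data known. Named genes were those 2-fold apart at all times, those called (up to 15 per direction), the largest of each list (up to 4), the strongest IFNAR-dependent genes, and those leading the time, single-time and agent contrasts. Il27, Clec2d and Cd59a were named after their values were seen. Alternatives were other normalizations, filters, probe rules, baselines and fits, and leaving out each pair.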

Additional observations from a re-analysis of the deposited data

Results flagged for a closer look

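Of the 27 genes called with IFNb or 2-fold apart at all 3 times, 11 had p50 differences that themselves differed between IFNb and CpG. Limma's test of the interaction used the times both agents have. Values are IFNb minus CpG in log2 units, with both differences (p50KO minus WT). These genes were chosen for their differences on the same IFNb arrays, so the test is not independent of the choice. Over all genes the test called 113 (1.23%), and 10 without the 3 h pairs. The genes higher in p50KO with IFNb were Apoe (2.0, adjusted p = 0.000371; 1.06 with IFNb and -0.94 with CpG), Cap1 (1.86, adjusted p = 0.00036; 1.35 with IFNb and -0.51 with CpG), Cybc1 (1.10, adjusted p = 0.006; 0.74 with IFNb and -0.37 with CpG), Gdf3 (0.817, adjusted p = 0.0455; 1.72 with IFNb and 0.90 with CpG), Rab4a (1.55, adjusted p = 0.00289; 1.40 with IFNb and -0.14 with CpG), Them6 (0.80, adjusted p = 0.031; 1.09 with IFNb and 0.29 with CpG). The genes lower in p50KO with IFNb were Acta2 (-0.925, adjusted p = 0.0374; -1.0 with IFNb and -0.072 with CpG), Bgn (-0.877, adjusted p = 0.0374; -1.52 with IFNb and -0.64 with CpG), Ccn2 (-0.951, adjusted p = 0.0127; -1.37 with IFNb and -0.42 with CpG), Cd59a (-1.31, adjusted p = 0.00749; -0.78 with IFNb and 0.53 with CpG), Igfbp7 (-1.46, adjusted p = 0.0284; -1.80 with IFNb and -0.34 with CpG). Apoe, Cap1, Cybc1 and Cd59a had the opposite sign in every CpG pair. The agents were measured on separate arrays with separate WT partners, and agent and array set cannot be told apart.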

How the results depend on the processing

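The 26 genes called with IFNb became 129 with median scaling (33 higher and 96 lower, against 10 and 16), 0 with no detection filter, 3 over the 21 WT and p50KO arrays and 12 without the LPS arrays. Time as a factor keeps the pairs, which share a time and no replicate number; without that replicate block 12 genes were called. Leaving out 1 pair gave 13 to 20 calls. The 15 genes 2-fold apart at all times became 8 with no background correction, 6 with the authors' normalized values, 32 at 1.5-fold and 3 at 3-fold, and 16 to 18 without a pair, which is a looser rule that the 15 meet by construction. In alternatives added after seeing the data, the 23 genes 2-fold apart at 3 h and 28 at 8 h became 14 and 12 with no background correction and 12 and 8 with the authors' values. With no detection filter the calls were 177 of 406 for 8 h against 1 h (727 with median scaling), 403 of 614 with CpG, 0 of 1 with LPS and 45 of 113 for IFNb minus CpG (192 with median scaling). Without 1 pair they were 180 to 569 with CpG (180 without 3 h), 1 to 4 with LPS and 10 to 103 for IFNb minus CpG (10 without 3 h). The mean over times of the program's median difference, 0.059, became -0.071 with each genotype's own baseline, and the change from 1 to 3 h, -0.088, became -0.35 with median scaling. The causes were not tested. Over the alternatives for the 27 genes called with IFNb or 2-fold apart at all times, 231 kept direction and side of the threshold. A further 117 kept direction and lost the call, 3 gained it and 0 reversed.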
